A study of Homo sapiens with 2 samples.

Results

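Transcripts of 10 genes of the ATF4 integrated stress response were followed in 1 library of a SETD2 knockout line and 1 library of its wild-type parent. The members were taken by gene symbol, from a list made with earlier results of these data known. Each of the 10 had 1 row among the 23375 gene rows used. They were EIF2AK4, PPP1R15A, ATF4, CEBPB, ATF3, ATF5, DDIT3, TRIB3, CHAC1 and ASNS. Both lines are 786-O, an established human clear cell renal carcinoma line that lacks functional VHL. The knockout line carried a SETD2 disruption made with a zinc finger nuclease, the wild-type line had intact SETD2, and both grew in RPMI medium with serum and no added agent. Whether the knockout line is 1 clone is not given in the sources used here. SETD2 places the trimethyl mark on lysine 36 of histone H3 along transcribed genes.

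In the integrated stress response, kinases that sense amino acid shortage, unfolded protein, viral RNA or lack of haem phosphorylate the initiation factor eIF2. General translation then falls, while the mRNA of ATF4, whose leader holds short upstream reading frames, is translated more. ATF4 is a leucine zipper (bZIP) factor that pairs with C/EBP factors and induces genes of amino acid supply, further stress factors and feedback regulators. Since ATF4 is controlled largely at translation, a transcript level is not a measure of ATF4 protein.

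The deposited reads of genes summed to 50670012 fragments in the knockout library and 62304084 in the wild-type library, a fragment being 2 deposited reads. SETD2 had 1404 fragments (2.39 RPKM) in the knockout library, against 4908 (6.79 RPKM) in the wild-type library. The ratio was 0.334, with an exact 95% counting interval of 0.314 to 0.354. Of 5 markers checked for the labelled renal carcinoma line, PAX8, VIM, KRT8 and KRT18 lay between 30.9 and 1192 RPKM in the knockout library and between 43.7 and 1734 in the wild-type library. CA9, the 5th, had 0 and 1 fragments. Markers of leukocytes, endothelium and fibroblasts (3 each) reached at most 0.302 RPKM in the knockout library and 0.116 in the wild-type library. With 1 library per line, no difference below has a replicate check, and every interval covers counting error only.

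ASNS and ATF4 were lower in the knockout library, and no member was higher by the same rule. The rule was that the whole interval of a ratio, knockout over wild type after scaling, lies above 1.5 (higher) or below 1/1.5 (lower). By this rule 2 of 10 members were lower, beside 9.17% of the 16894 genes tested, and 0 of 10 were higher, beside 10.4% of all genes tested. With 10 genes, counts so close to these shares do not set the members apart from other genes. The median log2 ratio of the members was -0.20, against 0.02 over all tested genes. Ratios were below 1 for 6 members and above 1 for 4, and the log2 ratios ran between -2.18 for ASNS and 0.61 for ATF3. Beside the lower ATF4 and ASNS stood ATF3, PPP1R15A, ATF5 and CEBPB with ratios above 1, none of which passed the rule.

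**Figure D1:**
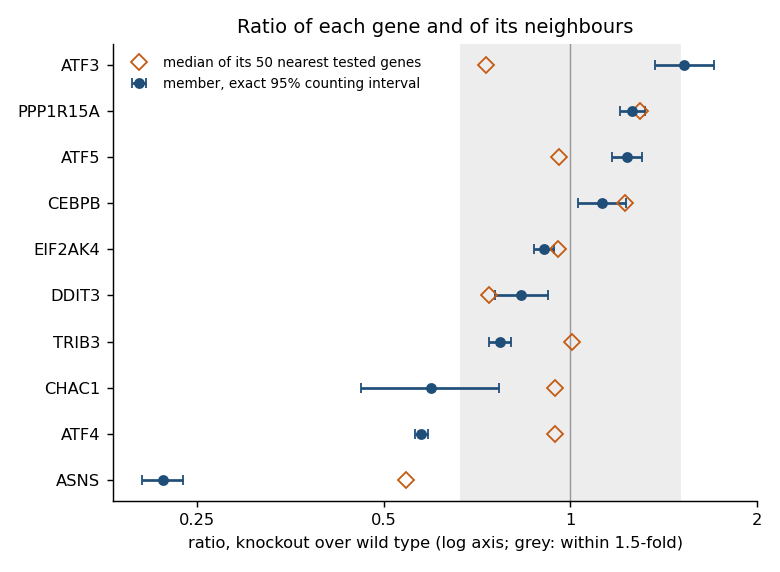
Ratio of knockout to wild-type fragments after scaling for each of the 10 members (filled points, with exact 95% counting intervals) and the median ratio of the 50 nearest tested genes (open diamonds), on a log axis. ASNS at 0.220 and ATF4 at 0.575 lie left of the grey 1.5-fold band, and the diamond of ASNS is also left of it.

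Levels between genes were compared by the deposited RPKM, which is per length. ATF4 was the most abundant member in both libraries, and CHAC1 the least abundant. In the knockout library the order by RPKM was ATF4, PPP1R15A, TRIB3, ATF5, EIF2AK4, DDIT3, CEBPB, ASNS, ATF3 and CHAC1. The counting intervals of PPP1R15A and TRIB3 overlapped there, as did those of ASNS and ATF3. In the wild-type library the order was ATF4, TRIB3, ASNS, PPP1R15A, EIF2AK4, ATF5, DDIT3, CEBPB, ATF3 and CHAC1, with an overlap of EIF2AK4 and ATF5. ASNS was thus 8th in the knockout library and 3rd in the wild-type library, the largest move in rank among the members.

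**Figure D2:**
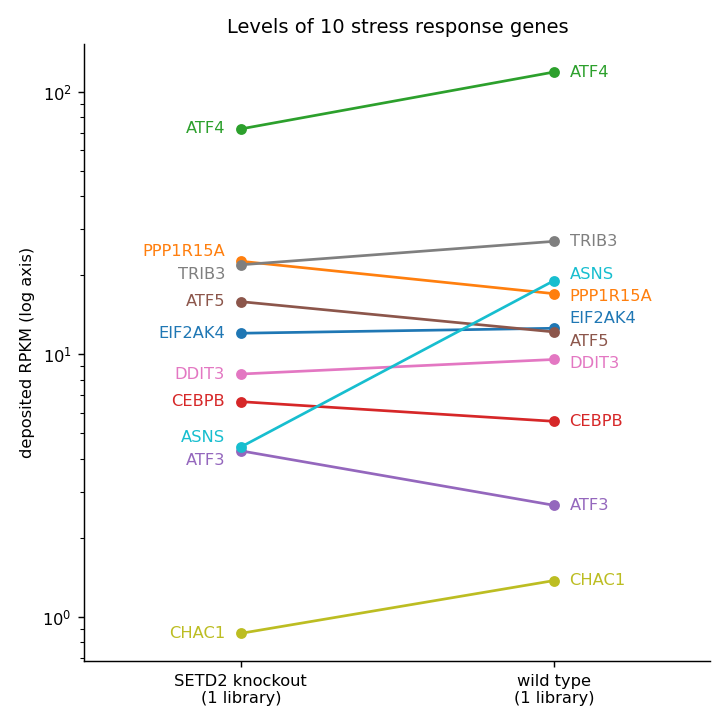
Deposited RPKM of the 10 members on a log axis, with the knockout library on the left and the wild-type library on the right and 1 line per gene. The line of ASNS crosses those of PPP1R15A, ATF5, EIF2AK4, DDIT3 and CEBPB, at 4.44 RPKM in the knockout and 19.1 RPKM in the wild-type library.

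Upstream of ATF4, EIF2AK4 encodes GCN2, the eIF2 kinase that responds to uncharged tRNA. It lies on chromosome 15 (hg19, 40226347 to 40327797). Its transcripts were counted in 4617 knockout fragments (12.0 RPKM), against 5943 wild-type fragments (12.6 RPKM). The ratio of 0.906 (interval 0.872 to 0.942) was close to 1. PPP1R15A (chromosome 19, 49375649 to 49379319) encodes GADD34, the stress-induced subunit that directs a phosphatase to eIF2 and so ends the response. It had 3753 knockout fragments (22.6 RPKM), against 3480 wild-type fragments (17.0 RPKM). Its ratio was 1.26 (1.20 to 1.32), above 1 but inside the 1.5-fold limits. The 50 tested genes nearest to PPP1R15A had a median log2 ratio of 0.37, beside 0.33 for PPP1R15A itself, so that it did not stand out from its region.

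Among the transcription factors, ATF4 (chromosome 22, 39916569 to 39918691) had 10162 knockout fragments (72.2 RPKM), against 20623 wild-type fragments (119 RPKM). The level was 1.74-fold lower in the knockout library (ratio 0.575, interval 0.561 to 0.589), and 10.9% of tested genes had a lower log2 ratio. CEBPB (chromosome 20, 48807120 to 48809227), a bZIP factor that binds DNA together with ATF4, had 969 knockout fragments (6.61 RPKM), against 1005 wild-type fragments (5.56 RPKM). With a ratio of 1.12 (1.03 to 1.23) it was near 1.

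ATF3, ATF5 and DDIT3 are bZIP factors downstream of ATF4. ATF3 (chromosome 1, 212738676 to 212794119), an early stress-induced factor, had 760 knockout fragments (4.29 RPKM), against 581 wild-type fragments (2.66 RPKM). Its ratio of 1.53 was the highest among the members, but the interval of 1.37 to 1.70 reached below 1.5. ATF5 (chromosome 19, 50431959 to 50437193), which like ATF4 is translated from an mRNA with upstream reading frames, had 2624 knockout fragments (15.9 RPKM), against 2480 wild-type fragments (12.2 RPKM). The ratio of ATF5 was 1.23 (1.17 to 1.30). DDIT3 (chromosome 12, 57910371 to 57914300) encodes CHOP, a factor linked to cell death under lasting stress. It had 690 knockout fragments (8.42 RPKM), against 966 wild-type fragments (9.56 RPKM), a ratio of 0.833 (0.754 to 0.920). ATF3 and ATF5 were thus above 1 and DDIT3 below 1, and none of the 3 passed the rule.

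The rows of DDIT3 and ATF5 overlap other genes, and strand use in counting is not given in the sources used here, so that reads in the shared bases cannot be told apart. DDIT3 shares 68 bases with the methionyl-tRNA synthetase gene MARS, whose ratio was 0.611 (0.591 to 0.632). ATF5 shares 1030 bases with NUP62, a nuclear pore gene with a ratio of 0.877, and 804 bases with IL4I1, an amino acid oxidase gene with a ratio of 0.692. The microRNA row MIR4751 inside ATF5 and 10 rows of SNAR-A genes that span PPP1R15A and ATF5 had 0 fragments in either library.

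Of the effector genes, TRIB3 (chromosome 20, 361308 to 378203) encodes a pseudokinase that restrains ATF4 and AKT. It had 3743 knockout fragments (21.9 RPKM), against 5666 wild-type fragments (27.0 RPKM). The ratio was 0.771 (0.739 to 0.803), below 1 but inside the 1.5-fold limits. CHAC1 (chromosome 15, 41245636 to 41248717), an enzyme that degrades glutathione, was the member with the fewest reads. It had 94 knockout fragments (0.866 RPKM), against 184 wild-type fragments (1.38 RPKM). Its ratio of 0.596 was nearly that of ATF4, but at this depth the interval of 0.460 to 0.768 crossed 1/1.5, and CHAC1 was not counted as lower.

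ASNS (chromosome 7, 97481429 to 97501854), the enzyme that makes asparagine and a standard readout of amino acid shortage, had 780 knockout fragments (4.44 RPKM), against 4134 wild-type fragments (19.1 RPKM). It was 4.54-fold lower in the knockout library, with an interval of 4.21-fold to 4.91-fold, and 2.04% of tested genes had a lower log2 ratio. The genes around ASNS were lower too. Of the 50 tested genes nearest to it, which span 7.03 Mb, 29 were lower and 1 was higher, with a median log2 ratio of -0.88. ASNS stood at -2.18, that is -1.30 relative to this median, and 2 of the 50 neighbours, COL1A2 (0 knockout and 14 wild-type fragments) and BHLHA15, had a lower log2 ratio than ASNS. The part of this regional difference in the value of ASNS was not tested.

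**Figure D3:**
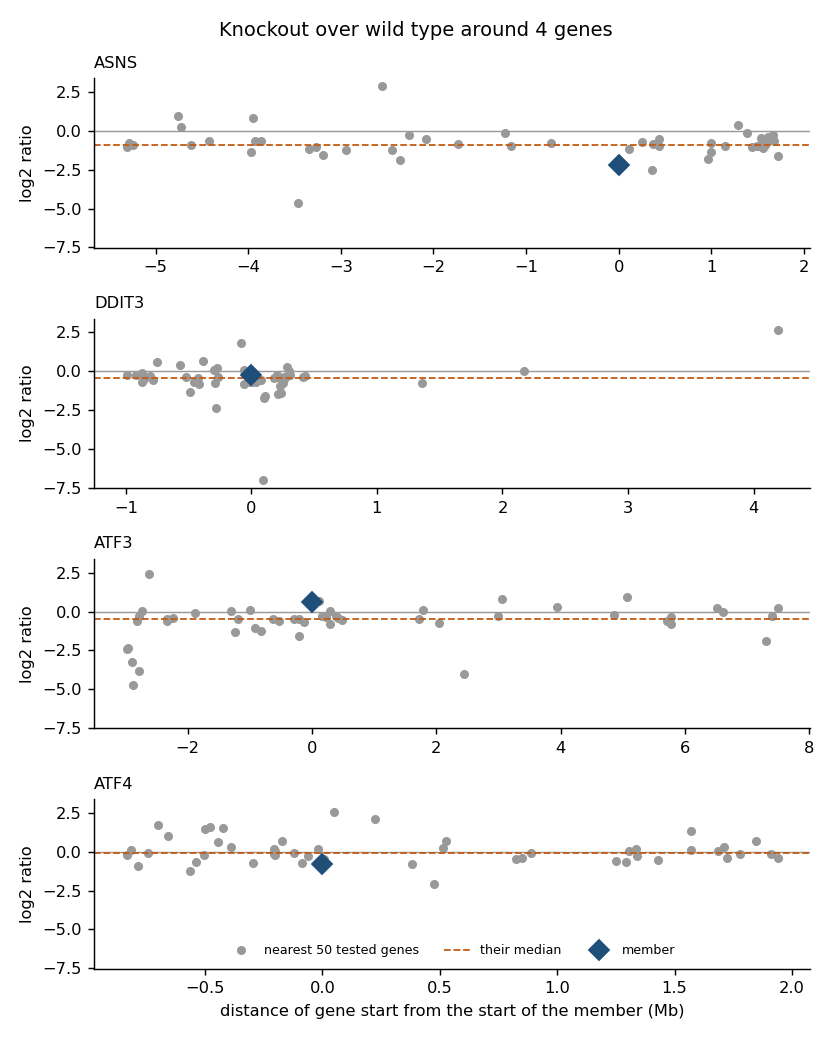
Log2 ratio, knockout over wild type, of the 50 tested genes nearest to ASNS, DDIT3, ATF3 and ATF4 (grey points), plotted by the distance of their starts from the start of the member (blue diamond), with their median as a dashed line. The median is at -0.88 around ASNS and at -0.08 around ATF4.

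Regional levels differed between the members. Around ATF3 the median log2 ratio of the 50 nearest tested genes was -0.45, with 11 lower and 0 higher. ATF3 stood at 1.06 relative to them and was counted as higher on that scale, as were 9.49% of all tested genes. DDIT3 lay in a region with a median of -0.44, with 14 of 50 genes lower and 2 higher, and stood at 0.17 relative to it. Around ATF4 the median was -0.08, with 2 of 50 genes lower and 5 higher, and only SUN2, APOBEC3A and FAM83F of these 50 had a lower log2 ratio than ATF4, SUN2 alone of these by the 1.5-fold rule. The neighbours of the other members, CEBPB, EIF2AK4, TRIB3, CHAC1 and ATF5, had medians between -0.08 and 0.29. Relative to their regions, ATF4 (-0.72) and CHAC1 (-0.66) kept nearly their values, while CEBPB (-0.12), PPP1R15A (-0.04) and DDIT3 (0.17) had the opposite sign to their own log2 ratios.

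Because scaling between libraries does not enter a ratio of genes within a library, each member was also set against ATF4. ATF4 was itself lower in the knockout library (ratio 0.575), so that a relative ratio above 1 need not mean a higher level. ASNS stood at 6.14% of the ATF4 RPKM in the knockout library, against 16.0% in the wild-type library, a relative ratio of 0.383 (exact interval 0.353 to 0.415). ATF3 showed the opposite, at 5.94% of the ATF4 RPKM in the knockout library and 2.24% in the wild-type library (2.65, interval 2.37 to 2.97). PPP1R15A, at 31.3% in the knockout and 14.3% in the wild-type library, and ATF5, at 22.0% in the knockout and 10.2% in the wild-type library, had relative ratios of 2.19 and 2.15. CHAC1 stood at 1.20% of the ATF4 RPKM in the knockout and 1.16% in the wild-type library, and its relative ratio of 1.04 had an interval of 0.799 to 1.34 that includes 1. TRIB3 (1.34), DDIT3 (1.45), EIF2AK4 (1.58) and CEBPB (1.96) lay between CHAC1 and ATF5. Not set against ATF4, TRIB3 (0.771), DDIT3 (0.833) and EIF2AK4 (0.906) had ratios below 1. Those of CEBPB (1.12), ATF5 (1.23), PPP1R15A (1.26) and ATF3 (1.53) were above 1 but did not pass the rule.

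**Figure D4:**
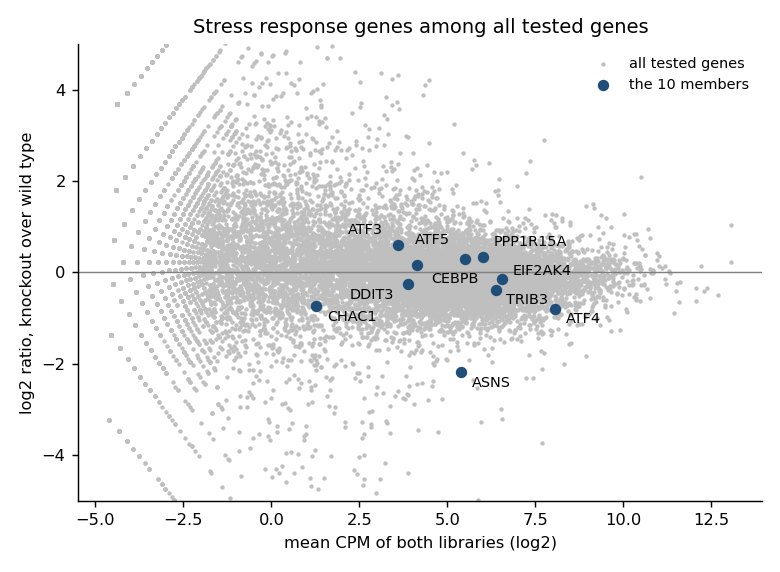
Log2 ratio, knockout over wild type, against the mean CPM of both libraries for all 16894 tested genes (grey) and the 10 members (blue, named). ASNS lies below the bulk of genes of its abundance, while the other members lie within it. The axis ends at 5 on either side and leaves out 144 genes.

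Promoter sequences were taken from RefSeq (GRCh38.p14) as windows of 250 bases before to 50 bases after each annotated start, and all 10 members matched, with 19 windows in all. ATF4 with a C/EBP partner binds a composite element, the C/EBP-ATF response element (CARE), searched here as TGATGNAA on both strands. It was found in 3 of the 19 windows, those of ASNS, CHAC1 and ATF3, and in 3.62% of all 35116 promoter windows. The cAMP response element, TGACGTCA, a site of the ATF and CREB family that reads the same on both strands, was added after the CARE matches had been seen. It was found in 1 window, that of PPP1R15A, and in 1.85% of all windows. The matched stretches are shown because they place these motifs relative to the start in 2 members with ratios below 1, ASNS and CHAC1, and 2 with ratios above 1, ATF3 and PPP1R15A. Capitals mark the motif, with flanks of up to 50 bases on the gene's strand, 5′ to 3′.

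ASNS, chr7:97872419-97872526, minus strand: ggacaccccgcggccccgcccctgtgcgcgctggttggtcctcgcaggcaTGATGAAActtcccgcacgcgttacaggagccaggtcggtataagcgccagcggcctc
CHAC1, chr15:40953221-40953319, plus strand: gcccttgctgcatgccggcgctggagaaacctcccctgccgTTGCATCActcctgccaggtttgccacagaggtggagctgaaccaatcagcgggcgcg
ATF3, chr1:212565166-212565273, plus strand: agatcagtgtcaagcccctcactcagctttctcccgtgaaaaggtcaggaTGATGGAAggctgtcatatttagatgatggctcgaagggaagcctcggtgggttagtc
PPP1R15A, chr19:48872313-48872420, plus strand: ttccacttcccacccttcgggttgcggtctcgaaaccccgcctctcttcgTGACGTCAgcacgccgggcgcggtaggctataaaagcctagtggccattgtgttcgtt

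The motif begins 68 bases before the start in ASNS, 209 in CHAC1, where it is on the opposite strand, 191 in 1 of the 2 windows of ATF3, and 58 in PPP1R15A. In ASNS it is in 1 of 2 windows. No match was present in these windows of ATF4, CEBPB, ATF5, DDIT3, TRIB3 or EIF2AK4, which says only that these letters are not there. A matching letter string is a description and not a measured binding site, and the ratios of the 3 genes with a CARE match ran between 0.220 for ASNS and 1.53 for ATF3.

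Other genes of the pathway were described by 15 lists that exclude the members and hold 144 genes, of which 141 were tested. Taken once each, 11 of these (7.80%) were higher, beside 10.4% of all tested genes, and 24 (17.0%) were lower, beside 9.17%, with a median log2 ratio of -0.15. Relative to the 50 nearest tested genes, 9 of the 11 kept the call as higher and 12 of the 24 as lower. On that scale 9 of the 141 (6.38%) were higher in all, beside 9.49% of all tested genes, and 16 (11.3%) were lower, beside 6.48%. The shares of all tested genes apply to each list below, and with 2 to 21 genes a list no count is read as particular to its list. Nearest to EIF2AK4, the 3 other eIF2 kinases had a median of -0.36. Their ratios were 0.710 for EIF2AK3, 0.779 for EIF2AK1 and 1.08 for EIF2AK2, the double-stranded RNA kinase. None of the 3 was counted in either direction. Nor was any of 8 eIF2 and eIF2B subunits (median 0.01), with EIF2S3 at 1.01 and EIF2S2 at 0.893, or any of 4 eIF2 phosphatase subunits (median -0.30). Their catalytic subunits PPP1CA and PPP1CB, the most abundant, had ratios of 0.879 and 0.964, and PPP1CC had 0.752. The 4th, PPP1R15B, the constitutive counterpart of PPP1R15A, had a ratio of 0.652 (0.626 to 0.679), whose interval crossed 1/1.5. IMPACT, an inhibitor of GCN2, was the 1 higher gene of 6 regulators of that kinase (median 0.22; ratio 1.75, interval 1.65 to 1.86). IMPACT did not pass relative to the 50 nearest tested genes, and the median of the 6 on that scale was -0.0038. Of 14 tested partner and related bZIP factors, CEBPA was higher, at 100 knockout and 8 wild-type fragments (ratio 14.6, 7.12 to 34.7), and CREB3L2 lower (0.455). The median of these factors was -0.06, and 0.02 with total count scaling. CEBPA stayed higher relative to its nearest genes, and CREB3L2 did not pass.

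Of 12 amino acid synthesis genes that ATF4 is known to induce, 5 (41.7%) were lower, beside 9.17% of all tested genes, and 1 was higher (median -0.50). ALDH1L2, a mitochondrial folate enzyme, had 15 knockout and 215 wild-type fragments (ratio 0.0814), MTHFD2 had a ratio of 0.586 and SHMT2 of 0.598. The higher gene was the serine synthesis enzyme PHGDH, at 36 knockout fragments and 1 wild-type fragment (ratio 42.0, interval 7.07 to 1704). SHMT2 did not pass relative to its nearest genes, and the other 4 lower genes did. Among 9 tested transporters, 2 were lower and 0 higher (median -0.33), the glycine transporter SLC6A9 at 0.179 and SLC1A4 at 0.503. Both also passed relative to the 50 nearest tested genes, as did SLC7A5.

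Of 13 genes of tRNA charging and export induced by ATF4, 4 were lower and 0 higher (median -0.29), the furthest being GARS (0.496), SARS (0.578) and MARS (0.611). Relative to the 50 nearest tested genes, none of these 4 passed, and the 1 lower gene of the 13 was AARS, which had not passed before. The 8 other aminoacyl-tRNA synthetases, with 0 in either direction, had a median of 0.03, including KARS at 1.06 and RARS at 1.13. Their median relative to the 50 nearest tested genes was -0.15, and 1 of the 8, FARSB, was lower. On the same scale the median of the 13 genes of tRNA charging and export was -0.29. The difference between these lists was not tested.

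Stress effectors that ATF4 can induce were found in both directions. Of 16 tested, 4 were higher and 3 lower (median 0.22), beside 10.4% and 9.17% of all tested genes. KLHL24 was 4.21-fold higher, the secreted stress cytokine GDF15 4.01-fold and the cell cycle inhibitor CDKN1A 2.38-fold, while VEGFA had a ratio of 0.511 and DDIT4, an inhibitor of mTOR signalling, 0.620. ADM2, a secreted peptide, had 1 knockout and 348 wild-type fragments (ratio 0.00335, interval 8.46e-05 to 0.0188). Of 11 autophagy genes linked to ATF4, 3 were higher, beside 10.4% of all tested genes, and 0 lower (median 0.31), namely ATG16L1 (2.15), NBR1 (1.81) and BECN1 (1.63). Relative to the 50 nearest tested genes DDIT4 and BECN1 did not pass, the other called genes of these 2 lists did, and the death receptor gene TNFRSF10B was lower. On that scale the median of the 16 stress effectors was -0.01 and that of the 11 autophagy genes 0.21.

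In the ATF6 and XBP1 arms of the unfolded protein response, which act beside ATF4 in the endoplasmic reticulum, 6 of 21 genes were lower and 0 higher (median -0.37), the furthest being PDIA4 (0.450), DNAJB9 (0.477) and SDF2L1 (0.511). Relative to the 50 nearest tested genes, 3 of the 6, SDF2L1, XBP1 and MANF, stayed lower. LONP1, a mitochondrial protease, was the 1 lower gene of 9 of the mitochondrial unfolded protein response (0.554; median of the 9, -0.09). Beside CHAC1, 2 of 5 glutathione genes were lower (median -0.12), GCLM (0.420) and GGCT (0.571), and 0 of 5 were lower relative to their nearest genes. Of the 2 relatives of TRIB3, TRIB2 was higher, at 85 knockout and 18 wild-type fragments (ratio 5.51, interval 3.28 to 9.74), and TRIB1 had a ratio of 1.02.

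**Figure D5:**
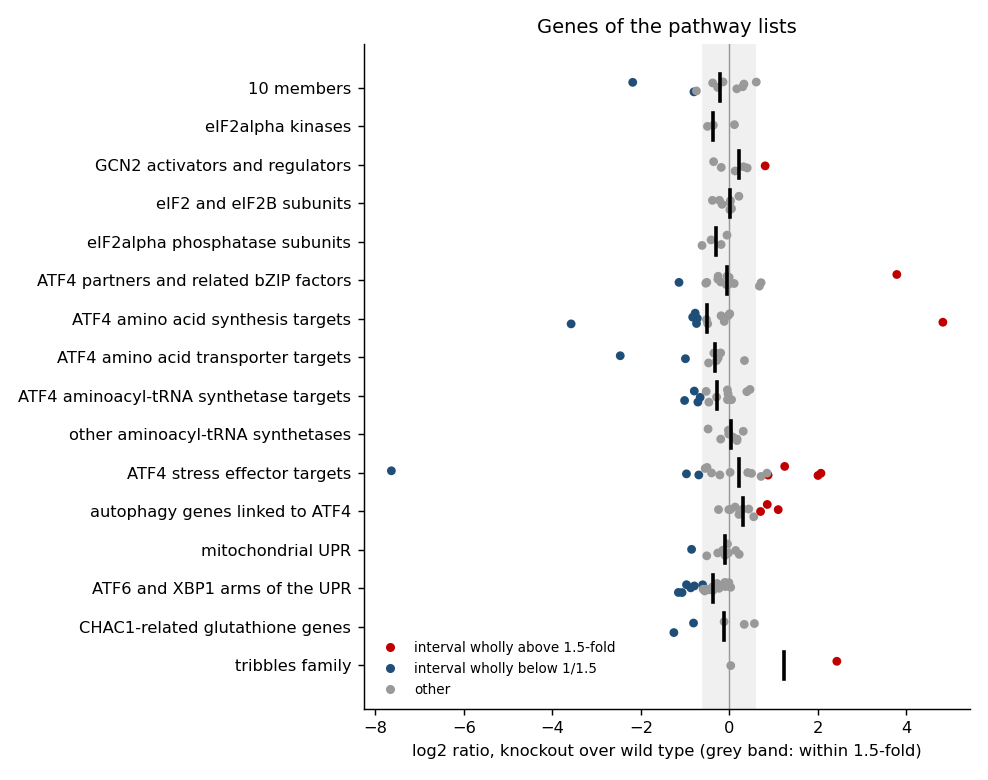
Log2 ratio, knockout over wild type, of each tested gene of the 10 members and of the 15 lists (points), with the median of each as a black bar. Red and blue mark genes counted as higher or lower. The medians run between -0.50 for amino acid synthesis and 1.23 for the 2 tribbles genes, and that of the members is -0.20.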

How the data were processed

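Total RNA of 2 lines was sequenced, 1 library per line, and libraries were grouped by their labels. The authors deposited a raw read count and an RPKM for each gene, as the file headers state. The submitters' processing notes name hg19, TopHat2 2.0.6, Bowtie and HTSeq; the sources used here give no settings, annotation release or strand use. Every deposited count was even, so counts were halved to fragments, which the design had not assumed. The deposited RPKM is the count per length and per 1 library total, of which gene counts made up 72.9% (knockout) and 72.7% (wild type). The Y rows of 23 genes that also have an X row were dropped.

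Genes with a summed count of 10 or more reads were scaled by TMM in edgeR 4.0.16 (R 4.3.3). Ratios have exact conditional (Clopper-Pearson) 95% intervals (scipy 1.17.1), and log2 ratios used 0.5 added fragments. No p-value was computed, since 1 library per line gives no replicate error. Alternatives were total count, upper quartile and DESeq2 1.42.0 scaling, minimums of 1 and 50 reads, a 99% interval, no interval, a 2-fold limit, undivided counts, the RPKM ratio, 2 added fragments and the ratio relative to the 50 nearest tested genes.

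The members and lists were chosen with earlier results of these data known. Named were all members, rows overlapping them, SETD2, and per list the genes beyond 1.5-fold, at most the 3 furthest in each direction by the interval bound nearest to 1, or else the 2 most abundant by RPKM. Neighbouring genes, EIF2AK3, PPP1CC, PPP1R15B, genes named only for their call relative to the nearest genes and the second promoter motif were named after their values were seen.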

Additional observations from a re-analysis of the deposited data

How the results depend on the processing

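ASNS was counted as lower under all 12 alternatives. ATF4 was counted as lower under all but the 2-fold limit, which left 1 lower member. ATF3 passed as the 1 higher member by the fold with no interval, by the deposited RPKM and relative to the 50 nearest tested genes, and CHAC1 joined ATF4 and ASNS as lower by the first and second of these. The other 6 members were within the limits under every alternative. The median log2 ratio of the members, -0.20, was -0.10 relative to the nearest genes and between -0.21 and -0.12 under the other alternatives. The counts of lower or higher members under the remaining alternatives were those given above. Over all tested genes, 1756 were higher and 1550 lower, against 3538 and 2830 by the fold with no interval, 3908 and 2407 by the deposited RPKM, and 971 and 569 at the 2-fold limit. Total count scaling gave 1998 higher and 1275 lower, and the scale relative to the nearest genes 1603 and 1095. With total count scaling, stress effectors had 5 higher and 2 lower, and autophagy genes 4 higher. The tRNA charging and export genes then had 3 lower, and the ATF6 and XBP1 arms 5 lower.

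Scaling moved the log2 ratio of each member by less than 0.1, and reversed no sign. The median of all tested genes lay between 0.00 and 0.09 under every setting. Depth limits CHAC1, whose 94 and 184 fragments in the knockout and wild-type libraries leave an interval that spans the 1.5-fold limit. No paired analysis was possible because each line has 1 library, and leaving out a replicate was impossible for the same reason.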
